A study of Mus musculus with 6 samples.

Results

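AGO2 binding on 9 mRNA decay and deadenylation genes was described from chimeric eCLIP of mouse brain. The genes were *Upf1*, *Upf2*, *Ddx6*, *Xrn1*, *Cnot1*, *Cnot6*, *Cnot6l*, *Cnot7* and *Pan3*, 9 of the 45286 RefSeq genes with a known strand. They were chosen by name, with earlier results of these data known. A cluster was counted for a gene when it overlapped the gene body on the same strand of mm10. Chimeric eCLIP crosslinks RNA to AGO2 with UV light, recovers it by immunoprecipitation (IP) and ligates the miRNA to its target, so that some reads name both. Whole brains of C57Bl/6J mice at postnatal day 0 (P0) gave 1 WT and 2 *Mov10* Deletion IP libraries, each set against its own input. *Mov10* Deletion mice came from a cross of a conditional knockout, in which *Emx1*-Cre removes exons 6 and 7 of floxed *Mov10*, with a heterozygous *Mov10* mutant. *Emx1*-Cre acts in excitatory neurons of the forebrain, so the whole brain still holds cells in which Cre was not active. The mutant allele is not limited to the cells with Cre. The 9 genes held 305 of 359172 AGO2 clusters in WT, 467 of 616014 in *Mov10* Deletion replicate 1 and 467 of 616005 in replicate 2. Chimeric reads formed target clusters, of which these genes held 29 of 18029 in WT, 42 of 27152 in replicate 1 and 22 of 12379 in replicate 2, shares of 0.161%, 0.155% and 0.178%.

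Removal of the poly(A) tail starts the decay of most mRNAs. The CCR4-NOT complex is the main deadenylase, with CNOT1 as its scaffold and CNOT6, CNOT6L and CNOT7 among its nucleases, and PAN3 is the partner of the nuclease PAN2. DDX6 is a helicase that binds CNOT1, represses translation and promotes decapping, after which XRN1 degrades the RNA from its 5′ end. UPF1 and UPF2 act in nonsense-mediated decay, which removes mRNAs that stop translation early. AGO2 reaches the deadenylases and DDX6 through TNRC6 proteins, so that target sites in the deadenylase genes and in *Ddx6* lie in mRNAs whose proteins serve miRNA repression.

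The target site with the highest score in the 9 genes lay in the 3’UTR of *Ddx6*, where AGO2 was enriched in all 3 libraries and the chimeric reads named miR-124-3p, a miRNA abundant in neurons. *Cnot6* and *Cnot6l* each had a 3’UTR stretch enriched in all 3 libraries, and *Cnot7* had a stretch in the 3’UTR of a shorter transcript that passed in WT and replicate 2. *Upf1* had an enriched cluster in each library, but never at the same place. *Upf2*, *Xrn1*, *Cnot1* and *Pan3* had no enriched cluster in WT. A cluster was called enriched when the authors' log2 IP over input and −log10 p were both at least 3. Because WT had 1 library, the genotypes were not tested against each other, and a difference between them is a difference between these libraries.

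In WT, 11 of 305 clusters of the 9 genes were enriched (3.61%, exact 95% interval 1.81 to 6.36), beside 2.11% of all clusters. Replicate 1 of *Mov10* Deletion had 38 of 467 (8.14%, 5.82 to 11), beside 5.18%, and replicate 2 had 26 of 467 (5.57%, 3.67 to 8.05), beside 3.10%. The WT interval holds the share of all clusters, and the *Mov10* Deletion intervals lie above it. These intervals cover counting error only and treat clusters as separate, but many enriched clusters touched end to end, which left 9 stretches in WT, 25 in replicate 1 and 17 in replicate 2. The genes were chosen with earlier results of these data known, so no share here tests them against the series. Enriched clusters were found in 5 of the 9 genes in WT (*Upf1*, *Ddx6*, *Cnot6*, *Cnot6l* and *Cnot7*), beside 18.7% of all genes with a cluster. They were found in 8 genes in replicate 1 (all but *Cnot7*), beside 40.9%, and in 8 genes in replicate 2 (all but *Xrn1*), beside 32.1%. In both *Mov10* Deletion libraries 7 genes had one, beside 24.1% of genes. The 9 genes had more clusters than most, with a median of 30 in WT and 44 in each *Mov10* Deletion library against 7 and 10 over all genes, and a gene with more clusters has more chances to hold an enriched one. Per 10 kb of gene, WT clusters ranged from 2.85 in *Upf2* to 7.75 in *Upf1*.

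**Figure D1:**
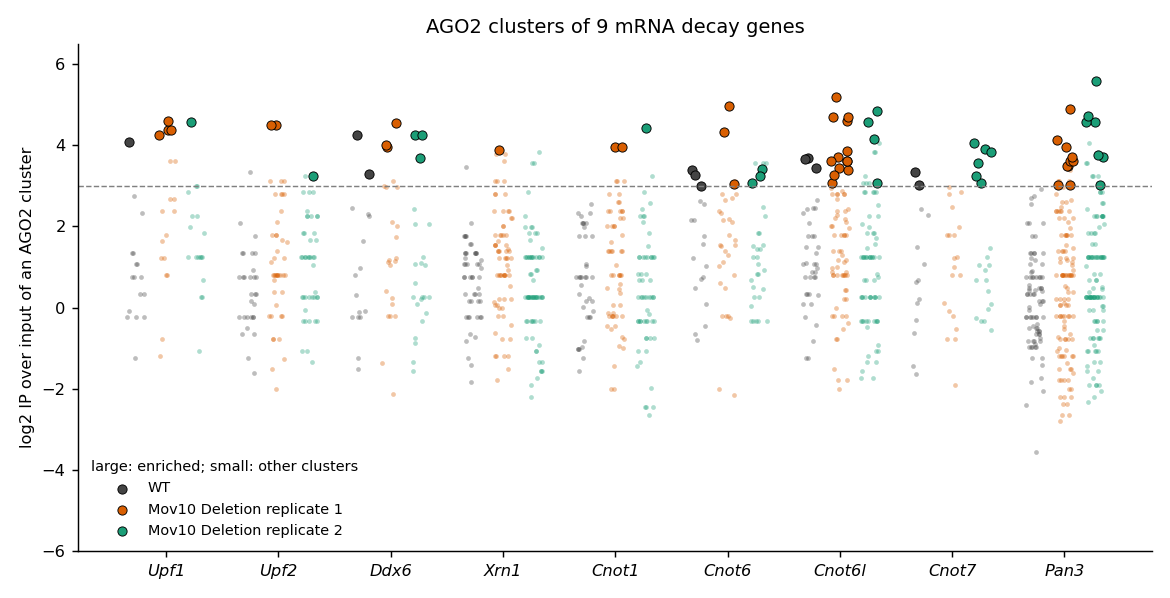
Log2 IP over input (vertical axis) of every AGO2 cluster in the 9 genes, by gene and library. Large points are enriched clusters, small points the others, and the dashed line is a log2 of 3. All 5 genes with a large WT point are *Upf1*, *Ddx6*, *Cnot6*, *Cnot6l* and *Cnot7*.

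The depth behind a call differed between the libraries. Total depth is unknown, but the reads behind most clusters could be inferred from the deposited ratio and p-value. Over 1 input read, a call needed 16 IP reads in WT, 9 in replicate 1 and 8 in replicate 2. The median enriched cluster of the 9 genes held 41.5 inferred IP reads in WT and 14 in each *Mov10* Deletion library. A single input read stood behind 1 enriched cluster in WT, 17 in replicate 1 and 8 in replicate 2. With at least 16 inferred IP reads asked of every library, 11, 14 and 10 enriched clusters were left, in 5, 5 and 4 of the genes. These counts keep a strong *Ddx6* cluster of each library, for which no reads could be inferred. Reads were not inferred for all enriched clusters of the series, so these counts have no series share beside them. Whether they are particular to the 9 genes is not known. *Mov10* itself had 11 clusters with 1 enriched in WT and 9 with none enriched in each *Mov10* Deletion library. These are clusters bound by AGO2 and do not check the deletion. All 7 neuronal marker genes and all 3 of progenitors and glia had clusters in every library. So did the 2 genes each of blood, vessels and microglia, while of 3 genes of other tissues 2 had clusters in WT and 1 in each *Mov10* Deletion library. The part of these cells in the values below was not tested, and in whole brain fewer cells of a type and less RNA per cell cannot be told apart.

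The *Mov10* Deletion libraries listed the same coordinates for 467 of 467 clusters of the 9 genes, so that a shared position between them is not independent. Their log2 values were compared at these positions. Of 56 clusters that either library called, both called 8 (14.3%, exact 95% interval 6.38 to 26.2), replicate 1 alone 30 (53.6%) and replicate 2 alone 18 (32.1%). Over all shared coordinates of the series the same shares were 9.38%, 59.0% and 31.6% of 46533 called clusters, so that the split in the 9 genes was close to that of the series. These 8 were 2 in *Ddx6*, 1 in *Cnot6*, 3 in *Cnot6l* and 2 in *Pan3*. Across the 467 clusters Pearson's r of the log2 values was 0.08, a description over points that share libraries and rest on few reads.

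**Figure D2:**
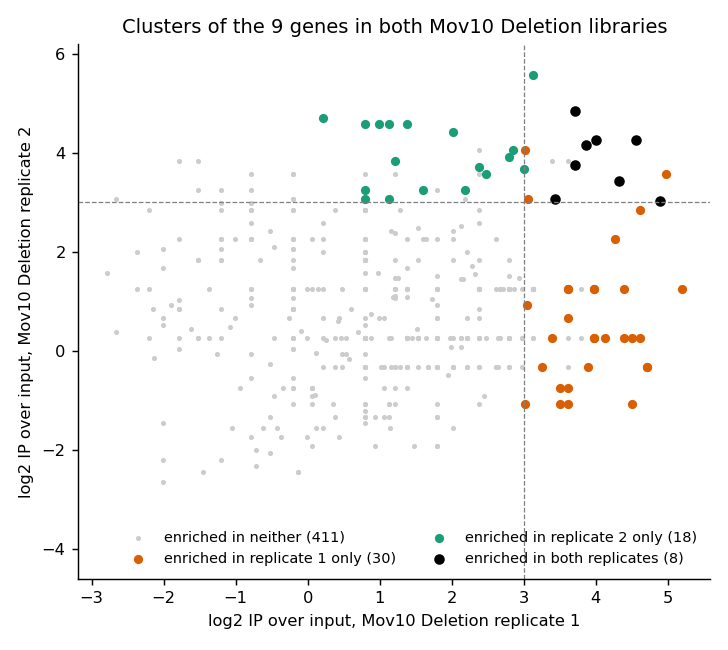
Log2 IP over input of each cluster of the 9 genes in *Mov10* Deletion replicate 1 (horizontal axis) and replicate 2 (vertical axis), with dashed lines at 3. The 8 black points passed in both libraries, while 30 orange and 18 green points passed in only one of them.

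Enriched clusters lay in different gene features in the 3 libraries. In WT 9 of 11 were in a 3’UTR (81.8%, exact 95% interval 48.2 to 97.7) and 2 in introns. In replicate 2, 15 of 26 were in a 3’UTR (57.7%, 36.9 to 76.6), 2 in coding sequence (CDS) and 9 in introns. In replicate 1, 6 of 38 were in a 3’UTR (15.8%, 6.02 to 31.3), with 6 in CDS, 7 in a 5’UTR and 19 in introns. Of the 5’UTR clusters, 6 touched in a single stretch of *Cnot6l*. With touching clusters counted once, replicate 1 had 5 of 25 stretches in a 3’UTR, 5 in CDS, 2 in a 5’UTR and 13 in introns. The 3’UTR then held 7 of 9 stretches in WT and 10 of 17 in replicate 2. Over all clusters of the 9 genes, enriched or not, the 3’UTR held 20.3% in WT and 15.6% in each *Mov10* Deletion library, and introns held 60.7% and 66%. The enriched share of the 3’UTR thus lay above that of all clusters in WT and replicate 2 and at it in replicate 1. Features were not assigned outside these genes, so the share over all enriched clusters of the series is not given. Among enriched clusters with at least 16 inferred IP reads, 3’UTRs held 9 of 11 in WT, 5 of 14 in replicate 1 and 6 of 10 in replicate 2. The *Ddx6* cluster without inferred reads is kept in these counts. The features are those of GENCODE vM39, carried over by distance from the 3′ end of the gene.

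**Figure D3:**
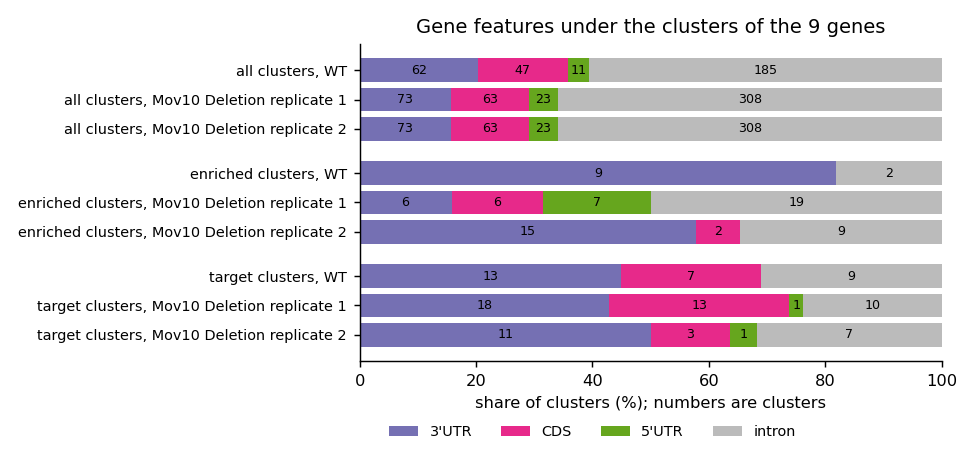
Share of clusters of the 9 genes (horizontal axis, percent) in 3’UTR, CDS, 5’UTR and intron, for all clusters, enriched clusters and target clusters of each library, with the number of clusters on each bar. The 3’UTR held 9 of 11 enriched clusters in WT, 6 of 38 in replicate 1 and 15 of 26 in replicate 2.

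The last 2000 nt of the gene body held 3 of 11 enriched clusters in WT (27.3%, exact 95% interval 6.02 to 61), 1 of 38 in replicate 1 (2.63%, 0.0666 to 13.8) and 3 of 26 in replicate 2 (11.5%, 2.45 to 30.2). Over all enriched clusters in protein-coding genes these shares were 29.1%, 17.3% and 16.6%, inside the interval in WT and replicate 2 and above it in replicate 1. The last 5000 nt held 9, 7 and 13 of them, 81.8% (48.2 to 97.7), 18.4% (7.74 to 34.3) and 50.0% (29.9 to 70.1), against 41.8%, 26.8% and 26.6%. These intervals treat the clusters of the 9 genes as separate, although many of them touched end to end. Several of these genes have long 3’UTRs, with 4253 nt in *Ddx6*, 4140 nt in *Cnot6* and 6850 nt in *Cnot6l* for the canonical GENCODE transcripts, so that the end of the gene body and the 3’UTR are not the same region.

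Chimeric reads in the 9 genes named 38 miRNAs in 109 assignments, and 12 of these miRNAs were named in at least 2 genes or 2 libraries. miR-124-3p took 16 of 37 assignments in WT (43.2%, exact 95% interval 27.1 to 60.5), 13 of 50 in replicate 1 (26%, 14.6 to 40.3) and 9 of 22 in replicate 2 (40.9%, 20.7 to 63.6). Over all target clusters of the libraries it took 42.2%, 34.8% and 36.8%, values inside the intervals of the 9 genes. It was assigned in 8 of the 9 genes, all but *Upf2*. miR-9-5p came next with 8, 3 and 4 assignments in 6 genes, followed by miR-125b-5p with 1, 4 and 1 in 4 genes. Over all assignments of the libraries miR-9-5p took 2013 of 22074 in WT, 2041 of 30526 in replicate 1 and 924 of 13468 in replicate 2. For miR-125b-5p these numbers were 1354, 1695 and 742. The few assignments in the 9 genes were not tested against them. The mature sequences of the named miRNAs are shown 5′ to 3′ from RefSeq (GRCm38.p6), with the seed, nucleotides 2 to 8, in capitals, because the sites printed with each gene are matches to these seeds. A sequence was matched for 35 of the 38 miRNAs, and those of miR-124-3p, miR-320-3p and miR-466i-5p were not used here.
miR-9-5p: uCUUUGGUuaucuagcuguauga
miR-9-3p: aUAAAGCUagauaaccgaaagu
miR-125b-5p: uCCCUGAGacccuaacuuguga
miR-135a-5p: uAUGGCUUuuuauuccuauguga
let-7c-5p: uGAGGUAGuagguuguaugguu
let-7a-5p: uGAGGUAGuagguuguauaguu
miR-301a-3p: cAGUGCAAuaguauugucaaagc
miR-130b-3p: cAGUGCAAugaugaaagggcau
miR-16-5p: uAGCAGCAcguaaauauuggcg
miR-181a-5p: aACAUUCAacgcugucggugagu
miR-127-5p: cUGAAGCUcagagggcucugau
let-7a-5p and let-7c-5p share a seed, and so do miR-301a-3p and miR-130b-3p. Among the miRNAs assigned once, let-7b-5p and let-7e-5p also have the let-7 seed, and miR-130a-3p has that of miR-301a-3p. miR-15a-5p has the seed of miR-16-5p, and miR-181b-5p and miR-181c-5p have that of miR-181a-5p. miR-99a-5p and miR-100-5p share a seed with each other.

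Matches to these seeds were looked for on the sense strand of GRCm39 inside each target cluster, as the 7 letters that pair with nucleotides 2 to 8 or, failing these, the 6 that pair with nucleotides 2 to 7. Of the 69 assignments with a known sequence, 28 held a 7-nt match (40.6%) and 13 more a 6-nt match. Assignments at the same letters in several libraries, or for miRNAs that share a seed, were each counted, so these are not separate sites. Windows of the same length over the whole gene held the 7-nt match in 0.601% on average, and the 6-nt match in 2.12%. These windows include introns, while most target clusters lay in 3’UTRs or CDS, so the background is not matched for feature. By library the 7-nt match was present in 10 of 20 assignments in WT, 11 of 36 in replicate 1 and 7 of 13 in replicate 2. A match is a description of the letters under the cluster and not a measured site, and 28 assignments had neither match.

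The 109 assignments fell on 68 separate sites. Of these, 50 were seen in 1 library, 11 in 2 libraries and 7 in all 3. The same miRNA returned in 8 of the 11 and in 6 of the 7. *Ddx6* held 5 of these 6 sites and *Pan3* the other. Where both *Mov10* Deletion libraries had a target cluster at a site, they listed the same coordinates, so that these places are not independent sightings. Recurrence was not counted over all target sites of the series, so whether it is particular to these genes is not known. An enriched AGO2 cluster lay under 5 of 29 target clusters in WT (17.2%, exact 95% interval 5.85 to 35.8), 6 of 42 in replicate 1 (14.3%, 5.43 to 28.5) and 3 of 22 in replicate 2 (13.6%, 2.91 to 34.9). Over all target clusters of the libraries the shares were 15.0%, 11.7% and 12%, inside these intervals.

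*Ddx6* (gene 13209, chr9:44602983-44640731, + strand) held the strongest site. In WT the cluster at chr9:44636840-44637091 reached 4.27 on the log2 scale, with its −log10 p at the limit of 400. It was the only WT cluster of the 9 genes at this limit, which 78 clusters of the library reached. In *Mov10* Deletion the cluster at chr9:44636799-44637002 had log2 values of 4.55 in replicate 1, with −log10 p at 400, and 4.26 in replicate 2, with −log10 p of 67.4. The log2 values of this cluster were thus close in all 3 libraries, although the deposited positions of the *Mov10* Deletion libraries are shared. The neighbouring cluster at chr9:44637003-44637109 had a log2 of 4.0 in replicate 1 (166 inferred IP over 18 input reads, 95% counting interval 3.30 to 4.79) and of 4.25 in replicate 2 (72 over 9, 3.25 to 5.44). Downstream of it, WT had a log2 of 3.29 (151 over 13 reads, 2.48 to 4.24), replicate 2 of 3.68 (70 over 13, 2.82 to 4.66) and replicate 1 of 2.998, just under the threshold (101 over 22, 2.32 to 3.73). The intervals of these neighbours overlap between the libraries, and all these clusters of *Ddx6* lie in the 3’UTR, 3487 to 3932 nt before the end of the gene.

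Chimeric reads at this *Ddx6* stretch named miR-124-3p in every library. Its target cluster had a score of 204.7 in WT, 127.3 in replicate 1 and 69.7 in replicate 2, each the highest of the 9 genes in that library. Among all miR-124-3p assignments these scores ranked 10 of 9312, 15 of 10630 and 12 of 4962. Median scores over all assignments were 4.65, 4.0 and 4.0, and since the scale of the score is not described, scores are compared here within a library only. Further miRNAs on the same target cluster scored far lower, in WT miR-9-5p with 6.77, miR-191-5p with 3.79, and miR-127-5p and miR-1198-5p with 3.0 each. In replicate 1 they were miR-125b-5p and miR-127-5p with 3.0 each.

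The other recurring *Ddx6* sites had no enriched AGO2 cluster at their place. A second miR-124-3p target cluster in the 3’UTR, at chr9:44638155-44638219, scored 15.4, 4.17 and 5.97 in WT and replicates 1 and 2, and only WT listed an AGO2 cluster there, with a log2 of 2.26. miR-135a-5p was assigned near the end of the 3’UTR, at chr9:44639875-44639965, with scores of 8.85, 10.3 and 4.0. The AGO2 clusters under it had log2 values of 2.46, 2.01 and 2.42 with −log10 p of 6.05, 7.10 and 6.84, below the threshold for the log2 in each library and close to each other. miR-9-5p was assigned in the CDS at chr9:44634110-44634172, with scores of 4.74, 3.61 and 3.74, where no AGO2 cluster was listed. It was assigned also in an intron at chr9:44616244-44616378, with scores of 10.5, 9.22 and 10.9 over AGO2 clusters with log2 values of 1.63, 1.21 and 1.1. The sites below are from GRCm39, on the + strand of chromosome 9, with the match to the seed in capitals, and are shown because the same miRNA was assigned there in all 3 libraries.
*Ddx6* 3’UTR, miR-135a-5p, chr9:44551179-44551208: ttgtgggaattAAGCCATgttattttaatt
*Ddx6* CDS, miR-9-5p, chr9:44545438-44545466: actttgacttcCCAAAGctggcagagacc
*Ddx6* intron, miR-9-5p, chr9:44527602-44527630: ctagtgattccCCAAAGgtgaggaaggaa
The miR-135a-5p site has the 7-nt match and both miR-9-5p sites the 6-nt match. Besides these, *Ddx6* had miR-124-3p target clusters in introns of replicate 1 (score 4.0) and replicate 2 (5.40), and miR-125b-5p (6.71) and miR-27b-3p (6.0) in the CDS in replicate 1. A further enriched cluster in replicate 1, with a log2 of 3.97, was intronic and rested on 9 over 1 reads.

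**Figure D4:**
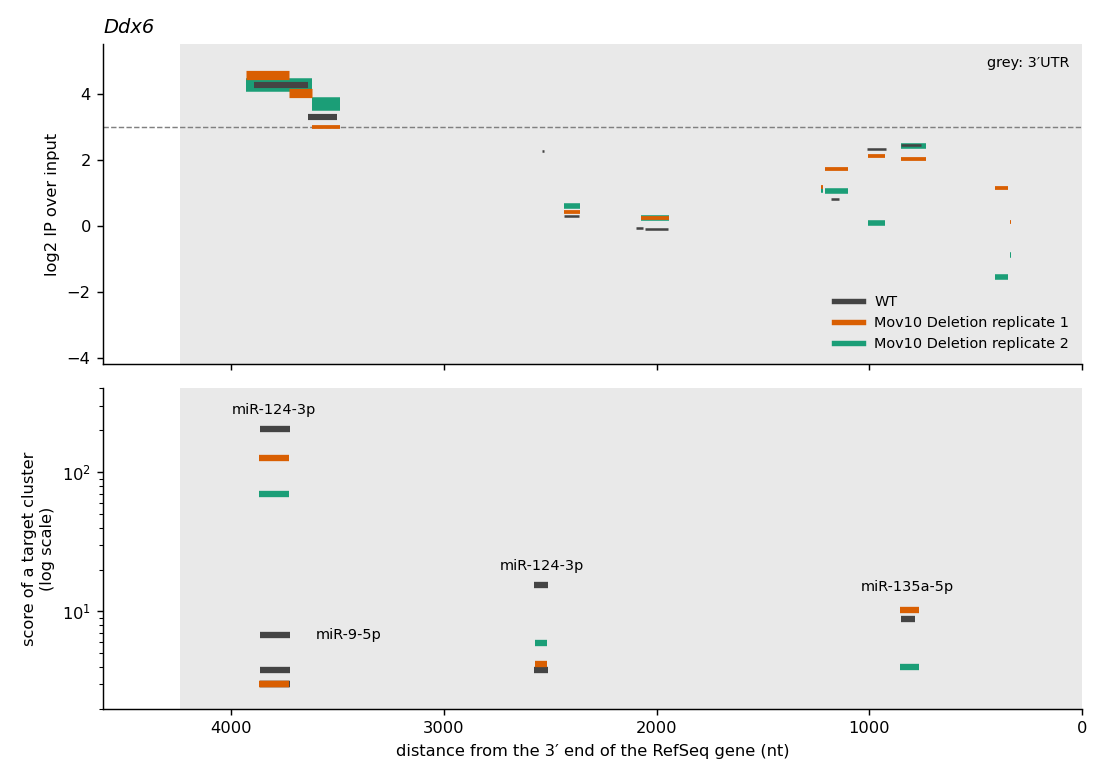
The end of *Ddx6* by distance from the 3′ end of the RefSeq gene (horizontal axis, nt), with the 3’UTR in grey. The upper panel shows the log2 IP over input of AGO2 clusters, thicker when enriched, and the lower panel the score of target clusters on a log axis. All 3 libraries have enriched clusters and a miR-124-3p target cluster between 3487 and 3932 nt from the end, with scores of 204.7, 127.3 and 69.7.

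*Cnot6* (gene 104625, chr11:49671497-49713401, − strand), a nuclease of the CCR4-NOT complex, had 3 enriched clusters in each library, and 1 stretch of its 3’UTR passed in all of them. In WT the cluster at chr11:49672833-49672978 had a log2 of 3.38 (37 over 3 inferred reads, 95% counting interval 1.72 to 5.72). The *Mov10* Deletion cluster at chr11:49672908-49673012 had a log2 of 4.32 in replicate 1 (23 over 2, 2.31 to 7.45) and of 3.42 in replicate 2 (9 over 2, 1.15 to 6.67). These intervals are wide and overlap. The chimeric reads there did not name the same miRNA, with miR-9-3p (score 5.80) in WT, miR-21a-5p (4.0) and miR-124-3p (3.73) in replicate 1 and none in replicate 2. The WT site holds a 7-nt match to the miR-9-3p seed, shown because it lies under this shared stretch.
*Cnot6* 3’UTR, miR-9-3p, chr11:49563768-49563797 (GRCm39, − strand): ctaaaggtttgAGCTTTAcacaaaacattt

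The remaining enriched *Cnot6* clusters each passed in 1 library. WT had 1 at the end of the 3’UTR with a log2 of 3.0 (19 over 2 reads) and 1 in an intron with 3.28 (23 over 2). At the first of these places replicates 1 and 2 had log2 values of 2.16 and 1.45. In replicate 1 an intronic cluster at chr11:49676695-49676810 had a log2 of 4.97 (18 over 1 reads), where replicate 2 had 3.58 on 5 over 1 reads with a −log10 p of 1.99 and WT had 1.22. Replicate 1 also had a cluster in the 5’UTR with 3.05. Replicate 2 had 3.06 in the 3’UTR under a miR-301a-3p target cluster (score 3.0), and 3.25 in the CDS. miR-124-3p returned at 3 places of *Cnot6*. In the CDS it scored 7.32 in WT and 5.29 in replicate 1, in the 3’UTR 3.28 in WT and 4.0 in replicate 1, and further up the 3’UTR 3.17 in WT and 3.54 in replicate 2. WT also had miR-124-3p in the CDS with a score of 7.28. Other target clusters of *Cnot6* in replicate 1 named miR-301a-3p (5.0) with miR-181a-5p (4.92) in the 3’UTR.

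*Cnot6l* (gene 231464, chr5:96070333-96164198, − strand), the paralog of *Cnot6*, had 3 enriched clusters in WT, 13 in replicate 1 and 4 in replicate 2. Its 3’UTR stretch enriched in all libraries was at chr5:96074661-96074829 in WT, with a log2 of 3.69 (46 over 3 reads, 95% counting interval 2.06 to 6.02), and at chr5:96074638-96074795 in *Mov10* Deletion, with 3.43 in replicate 1 (31 over 5, 2.06 to 5.15) and 3.06 in replicate 2 (14 over 4, 1.39 to 5.12). The 3 values differ by less than their counting error. miR-9-5p was assigned there in WT alone, with a score of 3.14.

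Both other places called in the 2 *Mov10* Deletion libraries lay in the same 3’UTR. At chr5:96073894-96073967 the log2 was 3.71 in replicate 1 (15 over 2 reads) and 4.84 in replicate 2 (12 over 1), and WT listed no cluster there. The chimeric reads named miR-9-3p (3.88) in replicate 1 and miR-125b-5p (3.62) in replicate 2. At chr5:96077029-96077149, where the 3’UTR begins, the log2 was 3.86 (25 over 3) and 4.16 (15 over 2), while the overlapping WT cluster had 2.42 (19 over 3, −log10 p of 2.66). Replicate 2 alone also passed in the neighbouring cluster at chr5:96076987-96077028, with 4.58 (10 over 1). In replicate 1 the target cluster there named miR-130b-3p, miR-301a-3p and miR-130a-3p, with scores of 4.0, 3.91 and 3.0, which share their seed. Neither the 7-nt nor the 6-nt match to this seed lay under that target cluster. In the other direction, WT had a log2 of 3.43 at chr5:96072216-96072426 (64 over 5 reads, 2.14 to 5.11), where the *Mov10* Deletion clusters had at most 2.44 in replicate 1 and −0.48 in replicate 2. Another enriched WT cluster, at chr5:96074867-96074951 with 3.66 (30 over 2), overlapped no *Mov10* Deletion cluster.

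The highest *Cnot6l* values of replicate 1 were in the 5’UTR. There 6 touching clusters of 6 to 37 nt covered 106 nt at chr5:96162236-96162341, with log2 values from 3.61 to 5.19 on 15 or 21 IP reads over 1 or 3 input reads each. Such neighbours can hold the same reads. Replicate 2 had log2 values from −0.33 to 1.25 in these clusters, on 1 to 4 IP reads, and WT listed none. The highest *Cnot6l* score of replicate 1 was for miR-124-3p in the 5’UTR, with 9.0, followed by miR-125b-5p in the 3’UTR with 7.82 and miR-29a-3p in the CDS with 5.0. In WT the highest were miR-124-3p in an intron with 4.73 and in the CDS with 4.52, and miR-9-5p in the 3’UTR with 4.11. The CDS site had miR-124-3p also in replicate 1, with 4.62, and the miR-9-5p site returned in replicate 2 with 5.0. In replicate 2 the others were miR-16-5p with 6.0 and miR-138-5p with 5.37.

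At chr5:96075625-96075708 the 3’UTR of *Cnot6l* had a target cluster in all 3 libraries under different names. WT had miR-106b-5p with a score of 3.0, replicate 1 miR-15a-5p with 3.0 and replicate 2 miR-16-5p with 6.0. miR-15a-5p and miR-16-5p share their seed and its 7-nt match lies at the same letters, while the match to miR-106b-5p lies closer to the end of the gene. These sites are shown with the recurring miR-9-5p site and the miR-9-3p site, all in the 3’UTR on the − strand of GRCm39.
*Cnot6l*, miR-15a-5p and miR-16-5p, chr5:96223534-96223563: ttctgctttttTGCTGCTataagagttttc
*Cnot6l*, miR-106b-5p, chr5:96223489-96223518: aaacttttcatGCACTTTactgtttctagt
*Cnot6l*, miR-9-5p, chr5:96220375-96220404: cctgcttatttACCAAAGtttaagaatagg
*Cnot6l*, miR-9-3p, chr5:96221811-96221840: agtatcctcatAGCTTTAcacactctgatg

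*Cnot7* (gene 18983, chr8:40492538-40515847, − strand), a further CCR4-NOT nuclease, had 2 enriched clusters in WT, 0 in replicate 1 and 6 in replicate 2. The WT clusters touched and lay 13993 to 14154 nt before the end of the gene, in the 3’UTR of a shorter annotated transcript. At chr8:40506531-40506631 the WT log2 was 3.02 (77 over 8 reads, 95% counting interval 1.97 to 4.29) and at chr8:40506632-40506692 it was 3.34 (60 over 5, 2.04 to 5.02). Over the same stretch replicate 2 had 4.06 (28 over 4, 2.55 to 6.03) and 3.92 (19 over 3, 2.15 to 6.32). Replicate 1 had 2.85 (29 over 7, 1.63 to 4.29) and 2.80 (24 over 6, 1.47 to 4.38), with −log10 p of 6.98 and 5.71. So replicate 1 lost the call by the log2 alone, and its interval overlaps those of the other libraries. Replicate 2 also passed at 2 places upstream of these clusters and at 2 places in the last 1000 nt, with log2 values from 3.06 to 3.84, where replicate 1 had at most 2.48.

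let-7c-5p was assigned to this *Cnot7* stretch with a score of 7.32 in WT, beside let-7b-5p with 3.0, and with 5.66 in replicate 1. Replicate 2, where the log2 was highest, had no target cluster there. The 7-nt match to the let-7 seed under the cluster is shown because it was named in both genotypes.
*Cnot7*, let-7b-5p and let-7c-5p, chr8:40959676-40959705 (GRCm39, − strand): aaacctgatgtCTACCTCaaatcttgggta
Nearer the end of the gene WT had miR-125b-5p (6.84) with miR-124-3p (4.86) and, closer to the end, miR-9-5p (6.17). Replicate 1 had miR-130b-3p (5.0) and replicate 2 miR-301a-3p (3.0) at neighbouring places, and replicate 2 also had miR-124-3p in the 5’UTR (4.0).

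**Figure D5:**
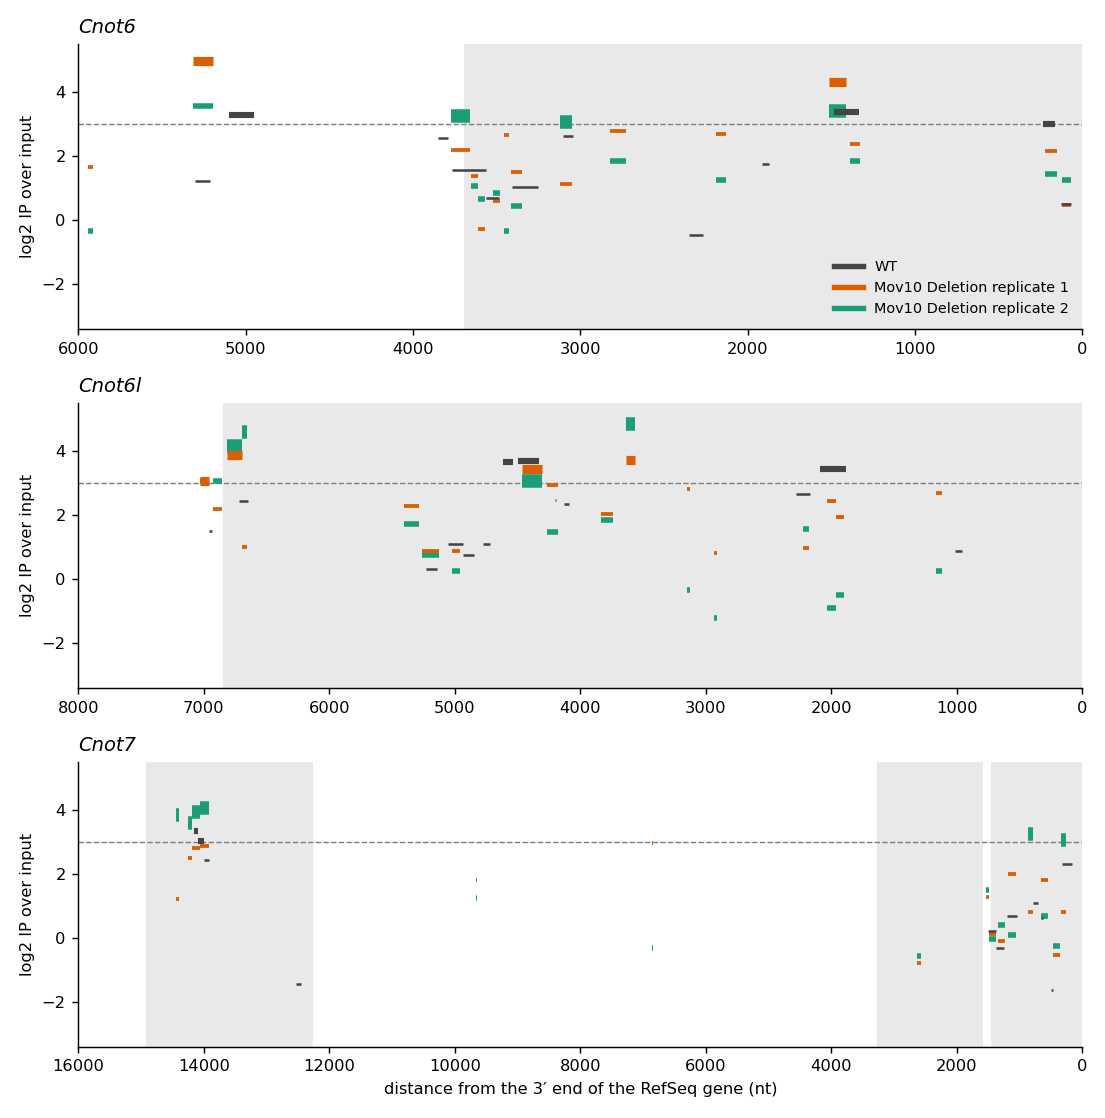
Log2 IP over input of AGO2 clusters (vertical axis) by distance from the 3′ end of the RefSeq gene (horizontal axis, nt) in *Cnot6*, *Cnot6l* and *Cnot7*, with 3’UTRs of any protein-coding transcript in grey and lines thicker when enriched. *Cnot6* and *Cnot6l* each have 1 stretch of the 3’UTR above the dashed line at 3 in all 3 libraries, and in *Cnot7* the stretch from 13993 to 14154 nt passes in WT and replicate 2.

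*Cnot1* (gene 234594, chr8:95718931-95808113, − strand), the scaffold of the complex, had no enriched cluster among 38 in WT, where its highest log2 was 2.56. Replicate 1 had 2 touching clusters with a log2 of 3.97 and replicate 2 had 1 with 4.42, all in an intron near the 5′ end and each on 9 over 1 reads. The clusters of the 2 libraries did not overlap. Its target clusters fell mostly in the CDS, with miR-9-5p in WT (4.67), miR-181a-5p (8.0) with miR-181b-5p (4.40) and miR-16-5p (5.0) in replicate 1, and miR-124-3p (3.0) in replicate 2, which also had miR-149-5p in an intron (4.0). No place recurred.

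*Pan3* (gene 72587, chr5:147426208-147548501, + strand) had the most clusters of the 9 genes, 85 in WT and 125 in each *Mov10* Deletion library, of which 0, 10 and 7 were enriched. All but 2 of these 17 were in introns. Its recurring stretch lay in an intron, 3929 to 4160 nt before the end. At chr5:147544452-147544480 the log2 was 3.71 in replicate 1 (15 over 2 reads) and 3.76 in replicate 2 (17 over 3), and at chr5:147544481-147544572 it was 4.89 (17 over 1) and 3.02 (17 over 5). The cluster before these, at chr5:147544376-147544451, had the highest log2 of any enriched cluster of the 9 genes, 5.58 in replicate 2 (20 over 1, 95% counting interval 2.93 to 10.9), and 3.12 in replicate 1 with a −log10 p of 2.91. WT had 2.93 there (27 over 3, 1.23 to 5.29), just under the threshold and with a −log10 p of 4.26. The miR-124-3p target cluster over this place, at chr5:147544365-147544460, scored 20.5 in WT and was not listed in either *Mov10* Deletion library.

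A second intronic miR-124-3p site of *Pan3*, at chr5:147452353-147452450, recurred with scores of 3.95, 4.0 and 3.0 in WT and replicates 1 and 2. The AGO2 clusters there had log2 values of 2.69, 3.02 and 4.06 on 23 over 3, 14 over 3 and 7 over 1 reads, and only replicate 1 passed both thresholds. miR-9-5p recurred in another intron with 5.37 in WT and 3.83 in replicate 1, at the 7-nt match shown.
*Pan3* intron, miR-9-5p, chr5:147431933-147431962 (GRCm39, + strand): gatgcagcttaACCAAAGggaagtatgatt
In the CDS miR-124-3p scored 7.0 in WT, where replicate 1 had miR-708-5p with 9.69. The other leading target clusters of replicate 1 were miR-125b-5p in the 3’UTR (5.0) and miR-124-3p in an intron (4.52), and miR-466i-5p (3.08) lay on an enriched intronic cluster with a log2 of 3.5. Replicate 2 also had miR-124-3p and miR-100-5p (3.05 each) and miR-128-3p (3.0) in introns. The remaining leading enriched clusters of *Pan3* were in introns, with log2 values of 4.12 and 3.97 in replicate 1 and 4.71 and 4.58 in replicate 2, each over 1 input read.

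*Xrn1* (gene 24127, chr9:95954750-96057806, + strand), the 5′ to 3′ exonuclease, had 1 enriched cluster in the 3 libraries, in replicate 1 at chr9:96024039-96024112 in the CDS, with a log2 of 3.89 (17 over 2 reads, 95% counting interval 1.81 to 7.04). In replicate 2 the same cluster had −0.33 on 1 over 3 reads, and WT had 1.17 (8 over 3) beside a miR-124-3p assignment with a score of 3.74. No *Xrn1* cluster in WT or replicate 2 had a −log10 p of at least 3 with a positive log2. Its other target clusters named miR-124-3p in an intron in WT (3.77), let-7e-5p in the 3’UTR (6.0), miR-124-3p in an intron (5.36) and let-7a-5p in the CDS (3.0) in replicate 1, and miR-124-3p in the 3’UTR in replicate 2 (4.41).

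*Upf1* (gene 19704, chr8:70331493-70353423, − strand), the helicase of nonsense-mediated decay, had 1 enriched cluster in WT, 4 in replicate 1 and 1 in replicate 2, each over 1 input read. In WT it lay at chr8:70333504-70333725, an intron near the 3′ end, with a log2 of 4.08 (20 IP reads, 95% counting interval 1.43 to 9.45). The overlapping *Mov10* Deletion cluster had 2.38 on 6 over 2 reads and 2.84 on 3 over 1. let-7c-5p was assigned there in WT, with a score of 3.85, at the 7-nt match shown. Windows of the same length over *Upf1* held this match in 3.48%, against 0.601% on average over all searched assignments.
*Upf1* intron, let-7c-5p, chr8:70786287-70786316 (GRCm39, − strand): caaacctgtgtCTACCTCagctaggctggc
The leading clusters of replicate 1 had log2 values of 4.61 in the CDS and 4.38 in each of 2 touching intronic clusters, and that of replicate 2 had 4.58 in another intron. miR-124-3p recurred in an intron with 4.49 in WT and 7.97 in replicate 1, which also had let-7a-5p (8.0), miR-210-3p (6.27) and miR-127-3p (4.6) in the CDS. Replicate 2 had no target cluster in *Upf1*.

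*Upf2* (gene 326622, chr2:5951447-6056703, + strand), the partner of UPF1, had no target cluster in WT and replicate 1 and 1 in replicate 2, for miR-9-5p in the CDS (score 3.87). No WT cluster was enriched. Its highest log2 in WT, 3.34, was in the CDS on 12 over 1 reads with a −log10 p of 2.32. At that place replicate 2 had 3.25 (12 over 3, 95% counting interval 1.36 to 5.72) and passed, and replicate 1 had 1.61 (14 over 8). Replicate 1 had 2 touching intronic clusters with 4.50 on 13 over 1 reads each.

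Set beside each other, 4 of the 11 enriched WT clusters (36.4%, exact 95% interval 10.9 to 69.2) were overlapped by a *Mov10* Deletion cluster enriched in both replicates, beside 34.9% of all 7582 enriched WT clusters. Asking for an overlap over 50% of the shorter cluster left 3, without *Ddx6* chr9:44637092-44637227, beside 32.0% of all. The 4 were 2 *Ddx6* clusters and 1 each of *Cnot6* and *Cnot6l*, all in 3’UTRs. Of the 7 others, 2 (1 in *Cnot6* and 1 in *Cnot6l*) overlapped no *Mov10* Deletion cluster. At the remaining 5 places, the *Upf1* cluster, the end of the *Cnot6* 3’UTR, 1 *Cnot6l* and both *Cnot7* clusters, *Mov10* Deletion clusters existed and at least 1 replicate stayed under the threshold. Of the 8 clusters enriched in both *Mov10* Deletion libraries, 4 overlapped an enriched WT cluster and 1 overlapped no WT cluster. The other 3 overlapped a WT cluster with a log2 of 2.42 or 2.93. The splits of these 8 clusters and of the 7 other WT clusters were not counted over the series. Whether these splits are particular to these genes is not known.

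Other genes of mRNA decay were counted from a list of 53 by role, of which 51 had a strand. An enriched cluster was found in 17 of the 51 in WT, 21 in replicate 1, 27 in replicate 2 and 14 in all 3, and in none of the libraries for 18. The counts stand beside the same 18.7%, 40.9% and 32.1% of all genes. By role, all 3 libraries had an enriched cluster in 5 of 13 deadenylation genes, 4 of 10 decapping genes, 3 of 4 genes of AU-rich decay, 1 of 14 exosome genes, 1 of 8 genes of nonsense-mediated decay and 0 of 2 of 5′ to 3′ decay. The pattern of *Cnot6*, *Cnot6l*, *Ddx6* and *Upf1*, enriched in all 3 libraries, was shared by 14 of the 51 genes, beside 12.7% of all 17766 genes with a cluster in any library. That of *Cnot1*, *Pan3* and *Upf2*, with an enriched cluster in replicates 1 and 2 but none in WT, was shared by 3, beside 9.90% of all genes. That of *Xrn1*, in replicate 1 alone, was shared by 4, beside 13.6%, and that of *Cnot7*, in WT and replicate 2, by 1, beside 0.642%. No enriched cluster in any library was found for 53.2% of all genes.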

How the data were processed

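AGO2 eCLIP libraries came from whole P0 brains, 1 WT and 2 *Mov10* Deletion, and input libraries were used only as the ratio the authors formed. Per the methods and the submitters' processing notes, the authors removed molecular identifiers with UMI-tools (1.1.1), trimmed with cutadapt (3.2), mapped to mm10 with STAR (2.7.7a), matched miRNAs with Bowtie (1.2.3) and called clusters with CLIPper. For each AGO2 cluster the authors deposited a −log10 p, capped at 400, and a log2 ratio of IP to input. For each target cluster the deposited score of the assigned miRNA was used, whose scale is not described. Whether both *Mov10* Deletion brains were called together is not stated.

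Genes were RefSeq bodies on GRCm38.p6, with strands from RefSeq where given and otherwise from GENCODE vM39 by symbol (45286 of 49997 genes). A cluster belonged to a gene when at least 1 nt overlapped on the same strand. The members and lists were chosen with earlier results of these data known. No mm10 exons or sequence were used. Features and seed matches come from GRCm39, placed by distance from the 3′ end of the gene after RefSeq and GENCODE ends were tied by promoter sequences found in both builds, and no coordinates were converted. The ends differed by 3 nt or less, except that GENCODE ran on by 441 nt in *Cnot6* and 1690 nt in *Cnot7*, where no cluster lay, and *Cnot7* could be tied on 1 side only.

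Reads were inferred by searching, with up to 60 input reads, for the pair of IP and input counts that yields both deposited values, with −log10 p matched within 0.001. A run on data simulated with the model's own formulas checked the search alone, not whether the authors used these formulas. The model could explain 99.7%, 98.0% and 93.8% of 600 clusters per library, sampled within a range of −log10 p. The same clusters set its constant. Among all clusters of the 9 genes it gave reads for 238 of 305 in WT, 382 of 467 in replicate 1 and 384 of 467 in replicate 2. The model is not described by the authors, and an inferred input of 1 read may stand for 0 or 1. Counting intervals are exact 95% intervals of IP against input reads. Clusters without a fit have none. No test compared genotypes. The genes named are all 9 members with their enriched clusters (the 3 highest where there were more) and target clusters (all up to 5 in a library, otherwise the 3 with the highest score). Target clusters that recurred or lay on an enriched cluster, and the matches shown, were added after their values were seen. Of the other decay genes, those enriched in all 3 libraries and the highest of each role are named. Alternatives are in the closing section. Python 3.11 with numpy, pandas and scipy was used.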

Additional observations from a re-analysis of the deposited data

How the results depend on the processing

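Of 48 alternative values, 26 stayed within 1.5 times the value reported (for a share, within its counting interval) and 22 did not, and the latter are given here. No paired analysis was possible because WT has 1 library and no test was run. With −log10 p of at least 5, enriched clusters fell to 18 in replicate 1 and 12 in replicate 2, and the genes with one to 5 in replicate 2. With a log2 of at least 2 there were 21 enriched clusters in WT and 63 in replicate 1. With a log2 of at least 4 there were 2, 16 and 12 in WT and replicates 1 and 2, and 2 genes in WT. With at least 16 inferred IP reads, and the *Ddx6* cluster without inferred reads kept, 14 and 10 clusters in 5 and 4 genes were left in replicates 1 and 2. WT kept its 11. Counting touching clusters once, a setting chosen after seeing the data, gave 25 and 17 in replicates 1 and 2. The share in the last 5000 nt was 81.8%, 18.4% and 50.0%, and in the last 1000 nt 0% in replicate 1. With a score of at least 5, target clusters numbered 13, 21 and 7. Leaving out either *Mov10* Deletion library gave 8 genes instead of 7. Input reads were few in *Mov10* Deletion, and the counting intervals there are wide. Total depth is unknown, so whether a cluster missing from a library was too shallow to be listed was not tested.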

Other observations

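Of the other decay genes, 14 had an enriched cluster in all 3 libraries. They were *Cnot4*, *Cnot11*, *Parn*, *Tob2* and *Btg2* of deadenylation, *Dcp1a*, *Dcp2*, *Patl1* and *Lsm14b* of decapping, *Dis3l2*, *Smg6*, and *Zfp36l1*, *Zfp36l2* and *Khsrp*, whose proteins bind AU-rich elements. Taking clusters that passed the p threshold, the highest log2 was found in *Btg2*, which codes for an antiproliferative protein that binds CNOT7, with 5.22 in WT and 6.61 and 5.95 in *Mov10* Deletion replicates 1 and 2. In this gene 5 of 6, 10 of 12 and 8 of 12 clusters were enriched. *Dcp2*, the decapping enzyme, had 4.76, 5.84 and 4.16, and *Lsm14b* 4.76, 5.22 and 5.44. *Zfp36l2* had 4.03, 5.12 and 5.01, and *Smg6*, the endonuclease of nonsense-mediated decay, 3.84, 4.61 and 3.42. The highest of the exosome genes was *Exosc6* with 5.12 in replicate 1 alone, and *Xrn2* reached 3.26 in replicate 1 alone.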
